A study of Mus musculus with 28 samples.

Results

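Primary spermatocytes were compared with spermatogonia of the same animal in 3 mice, using 6 of the 28 RNA-seq libraries of the series. Mice 178 and 648 were wildtype and mouse 544 was a Csmd1 knockout, in which exon 1 and part of intron 1 of Csmd1 are replaced by a lacZ and neomycin cassette. Each mouse gave 1 spermatogonia library and 1 primary spermatocyte library, and libraries were paired by the mouse number in their labels, with both genotypes pooled. The labels give the strain as C57BL/6, while the study's methods describe a mixed 129SvEvBrd and C57BL/6 colony. The labels give no treatment. The methods place sorted males at about 40 days of age, and the part of the sample list at hand names this age for mouse 178 only. The cells came from 1 testis per mouse and were sorted by flow cytometry after Hoechst staining, which separates germ cells by DNA content and chromatin state, so no protein marker of a stage entered the gates. In these bulk libraries, fewer cells of a type and less RNA per cell cannot be told apart.

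Spermatogonia are the mitotic germ cells at the base of the seminiferous tubule. They include the stem cells, the progenitors and the KIT-positive differentiating cells that retinoic acid commits to meiosis. Primary spermatocytes have copied their DNA and pass through meiotic prophase, in which homologous chromosomes are cut, paired along the synaptonemal complex and recombined. At the pachytene step the X and Y chromosomes are packed into the sex body and silenced, while autosomal genes for the piRNA pathway and for later sperm formation are switched on.

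RPKM (reads scaled by transcript length and by the mapped reads of the library) was summed over the transcripts of a gene, and a difference is the log2(RPKM + 0.1) of primary spermatocytes minus that of spermatogonia in the same mouse. Where 3 values stand in a row, they belong to mice 178, 648 and 544, in this order. The 6 libraries had an estimated 32533980 to 58761395 mapped reads, and 21453 genes with a mean of at least 0.1 RPKM were tested. Because reads in an exon shared by several transcripts can enter a sum more than once, sums were compared between libraries and not between genes. The targeted gene Csmd1 stood at 0.248, 0.033 and 4.96 RPKM in spermatogonia and at 0.132, 0.069 and 0.21 RPKM in primary spermatocytes. This does not check the genotype labels, as only the first exon is deleted and the sum covers the remaining exons. For whole knockout testes the study reports that most exons were absent or much reduced and that the last exons were raised. Exons were not looked at singly here.

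The stage labels were checked against 4 markers, and some libraries did not follow their label in all markers. Zbtb16, a transcription factor of undifferentiated spermatogonia, stood at 7.05, 15.5 and 3.55 RPKM in spermatogonia and at 0.073, 0.295 and 0.577 RPKM in primary spermatocytes. Kit, the receptor of differentiating spermatogonia, stood at 51.2, 183 and 18.2 RPKM and then at 0.584, 2.54 and 3.63 RPKM. Both spermatogonial markers were higher in the spermatogonia library of every mouse, with no overlap between the stages. The spermatocyte markers did not separate the stages in this way. Sycp1, the transverse filament of the synaptonemal complex, stood at 210.0, 104.1 and 22.8 RPKM in spermatogonia and at 24.6, 119.3 and 41.0 RPKM in primary spermatocytes. Sycp3, a component of its lateral element, stood at 1015, 443.7 and 195.9 RPKM in spermatogonia and at 328.9, 1585 and 530.4 RPKM in primary spermatocytes. In mouse 178 the library labelled spermatogonia thus held more Sycp1 and Sycp3 than the library labelled primary spermatocyte, and the ranges of the stages overlapped.

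**Figure D1:**
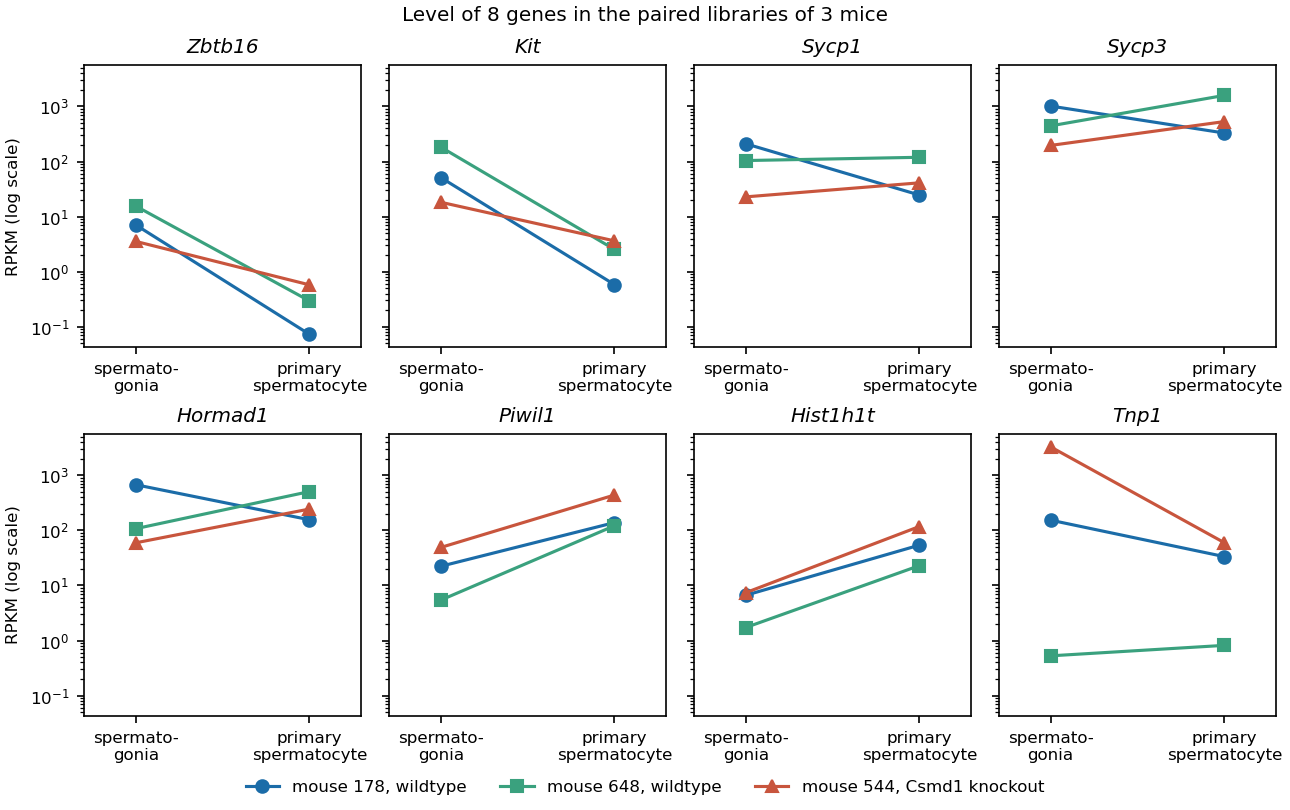
RPKM on a log axis for 8 genes in the spermatogonia and primary spermatocyte library of each mouse, with a line joining the libraries of 1 mouse. Zbtb16 and Kit run down and Piwil1 and Hist1h1t run up in all 3 mice, Sycp1, Sycp3 and Hormad1 run down in mouse 178 only, and Tnp1 reaches 3272 RPKM in the spermatogonia library of mouse 544.

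The spermatogonia library of mouse 544 also held transcripts of late spermatids. Tnp1, transition protein 1 of condensing spermatids, stood at 153.1, 0.527 and 3272 RPKM in spermatogonia and at 33.4, 0.816 and 59.7 RPKM in primary spermatocytes. Over 12 spermatid markers the summed level was 736.5, 21.7 and 16042 RPKM in spermatogonia and 217.7, 76.8 and 366.0 RPKM in primary spermatocytes. The median difference of these markers was -1.53, 1.31 and -5.48, so mouse 544 stood far from the wildtype mice, and the counts over all genes are therefore also given without it. The spermatogonia library of wildtype mouse 178 held such transcripts too, at a lower level. The knockout genotype and the far higher spermatid level belong to the same single mouse and cannot be told apart.

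Somatic markers were higher in the spermatogonia libraries of all 3 mice. The summed level of 10 Sertoli cell markers was 403.7, 702.9 and 752.7 RPKM in spermatogonia and 37.0, 168.4 and 51.3 RPKM in primary spermatocytes, and Rhox5 of that list was at 0 in all 6 libraries. For 6 peritubular and stromal markers it was 127.3, 793.8 and 28.9 RPKM against 2.11, 11.9 and 4.12 RPKM, and for 6 macrophage markers 19.1, 74.6 and 9.57 RPKM against 1.89, 3.29 and 3.03 RPKM. Leydig cell markers summed to 15.02, 322.1 and 24.8 RPKM against 8.14, 5.84 and 3.29 RPKM. Endothelial and blood markers summed to at most 12.7 RPKM in any library. The part of these cells in the differences below was not tested.

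Across the genome, more genes were lower than higher in primary spermatocytes. The difference was at least 2-fold upward in all 3 mice for 726 genes (3.38% of those tested) and at least 2-fold downward in all 3 mice for 3392 genes (15.8%). Without mouse 544 these counts were 3652 and 6601. The balance of the directions depended on the scaling: 17.6% of these genes were higher with the values as deposited, 51.0% after quantile normalization (1727 higher and 1659 lower) and 68.5% after centring each library on its median gene (3216 higher and 1479 lower). The median difference over all genes was -0.39, -0.45 and -0.30 with the deposited values, and the medians of gene groups below are to be read against it. Counts of list genes under another scaling are likewise to be read against the counts of all 21453 genes under that scaling. Of the 278 list and leading genes, every gene at least 2-fold higher or lower in all 3 mice kept its sign in each mouse under both other scalings, except Mei4 and C1ra in mouse 544 after quantile normalization. Smaller differences were less secure. Under 1 of these scalings or both, the sign in at least 1 mouse was the other way for Mcm4, Pcna, Top2a, Sycp1, Sycp2, Syce1, Rad21l, Smc1b, Rfx2, Ybx2, Tdrd6, Mael, Ddx25, Adad1, Piwil2, Mov10l1, Aurkc, Rbmxl2, H2afx, Topbp1, Rnf8, Mdc1, Dnmt1, Uhrf1, Tex13a, Hils1 and Csmd1.

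The paired limma test of the 3 mice called no gene at an adjusted p of 0.05 in either direction (0% higher and 0% lower), although 5703 genes had an unadjusted p under 0.05, 1330 of them higher and 4373 lower. The smallest adjusted p was 0.0561. In the fit of mice 178 and 648 alone, limma called 3667 genes higher (17.5% of 20895) and 5958 lower (28.5%) at an adjusted p of 0.05. Of these genes, 1748 higher and 4374 lower ones had the same sign in mouse 544. Most genes called higher were thus not higher in mouse 544, where the median difference over all genes was -0.30. Most genes called lower were lower there. An unpaired limma fit of 9 libraries, which adds 1 knockout spermatogonia library and 2 knockout primary spermatocyte libraries, called 1721 higher (8.08% of 21290) and 4395 lower (20.6%). Without the mouse as a block, the same 6 libraries gave 55 higher and 970 lower. Across genes the differences of mice 178 and 648 correlated with r = 0.80 over 21453 genes, and those of mouse 544 with r = 0.25 and 0.15 to them. Genes share a library, so this is a description.

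Genes were ranked by the difference in the mouse where it was smallest, and the 10 leading higher genes included a well-known spermatocyte gene. Hist1h1t (chromosome 13, 23695814 to 23696725, GRCm38), the testis-specific linker histone H1t of pachytene spermatocytes, stood at 6.62, 1.72 and 7.38 RPKM in spermatogonia and at 53.9, 22.9 and 117.3 RPKM in primary spermatocytes. Its mean paired difference was 3.54 (SE 0.63, n = 3, limma adjusted p = 0.0561), and its stages did not overlap. Sap30 (chromosome 8, 57482707 to 57487860), a subunit of the Sin3 histone deacetylase complex, stood at 1.37, 0.58 and 1.53 RPKM and then at 11.4, 6.17 and 14.4 RPKM, with differences of 2.97, 3.20 and 3.16. The other 8 of the 10 leading genes were the lincRNAs Gm15767 and 4930477E14Rik, the antisense RNA Gm20548, the pseudogene Gm17187, the small RNA genes Gm24120 and Gm25626, and the predicted coding genes Gm8926 and Gm3371. Gm20548 stood at 7.22, 3.11 and 14.2 RPKM in spermatogonia and 54.9, 21.9 and 112.2 RPKM in primary spermatocytes. The strand of the counting is not given in the sources used here, so Gm20548 cannot be told apart from a gene on the other strand. Values of small RNA genes, predicted genes and the pseudogene are uncertain, since short RNAs and near-identical copies are poorly resolved by reads of this kind.

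Long noncoding RNAs were also counted. Of 811 lincRNAs tested, 5.80% were at least 2-fold higher and 6.66% at least 2-fold lower in all 3 mice, against 3.11% and 18.7% of 16398 protein-coding genes. Their median differences in mice 178, 648 and 544 were 0.00, 0.10 and -0.58, and those of protein-coding genes -0.47, -0.65 and -0.38.

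The 10 leading genes in the other direction included genes known from immune and matrix-forming cells and genes on the X chromosome. Cd74, the invariant chain of major histocompatibility complex class II, stood at 57.2, 28.9 and 14.2 RPKM in spermatogonia and at 0.218, 0 and 0.139 RPKM in primary spermatocytes. Col15a1 (chromosome 4, 47208161 to 47313167), a basement membrane collagen, stood at 20.9, 61.1 and 17.6 RPKM and then at 0.266, 0.964 and 0.084 RPKM. The macrophage and peritubular sums given above were also lower in primary spermatocytes, and their part in these values was not tested. Of the 10, 3 are on the X chromosome: the noncoding transcript 5530601H04Rik, Klhl13, an adaptor of a cullin ubiquitin ligase, and Xlr3a, a member of a multicopy family whose copies can share reads. Klhl13 (chromosome X, 23219271 to 23365082) stood at 5.22, 28.8 and 2.82 RPKM and then at 0, 0.417 and 0 RPKM. The other 5 were Large2, Nrep, Prdm16, Meg3 and Mical1, with mean differences of -5.13, -4.94, -5.19, -5.29 and -4.99.

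Most spermatogonial factors were lower in primary spermatocytes of every mouse. Of 20 stem and progenitor factors tested, 12 (60%, beside 15.8% of all genes) were at least 2-fold lower in all 3 mice (7 after quantile normalization or median centring) and 1 (5%, beside 3.38%) was higher, and their median difference was -3.43, -4.51 and -1.57. The fit of mice 178 and 648 called 16 of the 20 lower and 1 higher, beside 28.5% and 17.5% of all genes. Sall4, a zinc finger factor of progenitors, stood at 77.3, 302.2 and 19.03 RPKM in spermatogonia and at 0.351, 3.56 and 1.80 RPKM in primary spermatocytes, the largest mean difference in the list (-5.71, SE 0.89, n = 3, limma adjusted p = 0.0561). Lin28a, an RNA-binding protein of progenitors, stood at 11.6, 34.3 and 5.06 RPKM and then at 0.019, 0.412 and 1.62 RPKM. Gfra1 and Ret, the receptors through which glial cell line-derived factor keeps stem cells, had differences of -1.15, -3.77 and -1.85 and of -3.63, -5.37 and -1.99. The difference was smallest in mouse 544 for Sall4, Lin28a and Ret and in mouse 178 for Gfra1. Id4, an inhibitor of basic helix-loop-helix factors used as a stem cell marker, went the other way in all 3 mice. It stood at 2.49, 0.876 and 2.54 RPKM in spermatogonia and at 7.35, 6.83 and 19.03 RPKM in primary spermatocytes, so its stages did not overlap and the direction was opposite to that of the list. Bcl6b, a transcriptional repressor of stem cells, had differences of 2.85, -0.71 and -0.83.

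A list of differentiating spermatogonia factors behaved alike. Of 10 tested, 6 (60%, beside 15.8% of all genes) were at least 2-fold lower in all 3 mice and none higher, with medians of -4.80, -4.58 and -1.95. These 6 include Kitl, the ligand of KIT, which is made by Sertoli cells and is not a marker of spermatogonia. Its differences were -2.81, -3.72 and -3.78, and Sertoli cell markers moved in the same direction. Stra8, the retinoic acid target that starts meiosis, stood at 63.5, 87.1 and 21 RPKM in spermatogonia and at 0.219, 4.37 and 3.04 RPKM in primary spermatocytes. Dmrt1, which holds spermatogonia in mitosis, stood at 66.0, 119.8 and 24.5 RPKM and then at 0.394, 2.23 and 6.20 RPKM. Sohlh1, a factor of differentiating spermatogonia, had differences of -4.87, -4.11 and -3.12, while its partner Sohlh2 had -4.74, -5.01 and 0.77 and so was not lower in mouse 544. Dmrtb1, which controls the passage from mitosis to meiosis, went the other way in the wildtype mice. It stood at 115.5, 44.8 and 873.9 RPKM in spermatogonia and at 1015, 335.3 and 288.5 RPKM in primary spermatocytes.

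**Figure D2:**
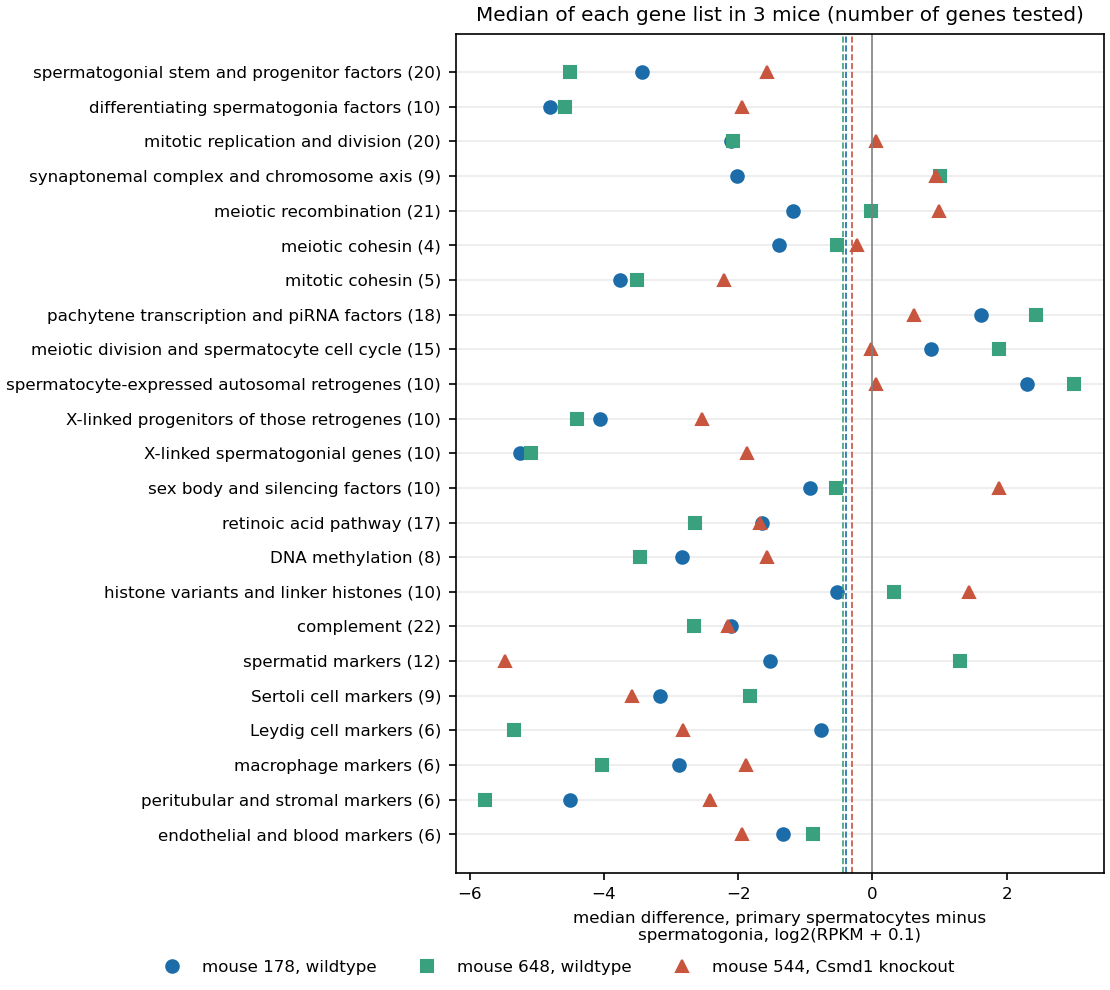
Median difference of each gene list in log2(RPKM + 0.1), 1 point per mouse, with the number of genes tested in brackets, a grey line at 0 and dashed lines at the median of all genes tested in each mouse. Spermatogonial, mitotic cohesin and X-linked lists lie left of the dashed lines in all 3 mice, pachytene and piRNA factors lie right of them in all 3, and spermatid markers lie at -1.53, 1.31 and -5.48.

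Retinoic acid genes were mostly lower as well. Of 17 tested, 8 (47.1%, beside 15.8% of all genes) were at least 2-fold lower in all 3 mice (5 after quantile normalization) and none was at least 2-fold higher (3.38% of all genes). Crabp1, a cytoplasmic retinoic acid binding protein, stood at 37.5, 27.7 and 18.9 RPKM in spermatogonia and at 0.975, 0.225 and 2.37 RPKM in primary spermatocytes. The receptors Rara and Rxra had differences of -1.91, -2.70 and -2.07 and of -3.25, -5.20 and -4.34, and Cyp26b1, which degrades retinoic acid, of -3.36, -4.90 and -2.49. Part of this list is also expressed by Sertoli and other somatic cells, whose markers moved in the same direction. Aldh1a2, the retinaldehyde dehydrogenase expressed by spermatocytes, stood at 7.999, 5.04 and 13.3 RPKM in spermatogonia and at 42.1, 32.4 and 25.0 RPKM in primary spermatocytes. It was the only gene of the list that was higher in all 3 mice, by 2.38, 2.66 and 0.91.

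Of 8 DNA methylation genes, 4 (50%, beside 15.8% of all genes) were at least 2-fold lower in all 3 mice, with list medians of -2.84, -3.46 and -1.58. They were the de novo methyltransferase Dnmt3a and the 5-methylcytosine dioxygenases Tet1, Tet2 and Tet3. Dnmt3a stood at 91.1, 92.5 and 52.6 RPKM in spermatogonia and at 2.78, 5.24 and 8.62 RPKM in primary spermatocytes. The maintenance methyltransferase Dnmt1 did not separate the stages, with 71.6, 171.5 and 66.6 RPKM against 54.3, 55.3 and 100.2 RPKM. Its cofactor Uhrf1 was slightly higher in all 3 mice, by 0.97, 0.14 and 1.12, but not in mouse 648 after quantile normalization.

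Mitotic genes gave no single direction. Of 20 tested, 6 (Mcm2, Cdt1, Ccnd1, Ccnd3, E2f1 and Rrm2, or 30% beside 15.8% of all genes) were at least 2-fold lower in all 3 mice and none higher, with medians of -2.11, -2.08 and 0.05. After median centring 3 were lower and 3 higher. Ccnd1, the D-type cyclin of cell cycle entry, stood at 45.0, 191.5 and 22.4 RPKM in spermatogonia and at 1.47, 5.04 and 4.73 RPKM in primary spermatocytes. Mcm2, a subunit of the replicative helicase, stood at 14.0, 34.6 and 6.99 RPKM and then at 0.131, 0.512 and 1.21 RPKM. The helicase subunits Mcm3, Mcm4, Mcm5 and Mcm6 were lower by 2.13 to 5.35 in the wildtype mice, whereas in mouse 544 their differences were 0.58, -0.60, 0.01 and 0.09. Pcna, the sliding clamp of replication and repair, had differences of 0.59, 0.38 and 1.55, and Top2a, topoisomerase II alpha, of -1.13, 0.10 and 0.86.

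The cohesin rings that hold sister chromatids differed by subunit. Of 5 mitotic or shared subunits, 4 (80%, beside 15.8% of all genes) were at least 2-fold lower in all 3 mice, also after quantile normalization (3 after median centring), and the fit of mice 178 and 648 called all 5 lower. Stag2, on the X chromosome, stood at 58.7, 178.2 and 34.9 RPKM in spermatogonia and at 0.424, 5.43 and 2.09 RPKM in primary spermatocytes. Smc1a, also X-linked, had differences of -3.95, -4.59 and -2.22, the kleisin Rad21 of -2.54, -3.51 and -1.71, and Smc3, which serves mitotic and meiotic rings alike, of -3.77, -2.85 and -2.66. Stag1 was lower by 1.12 and 1.65 in the wildtype mice and higher by 1.04 in mouse 544. Among the meiotic subunits, Stag3 stood at 481.6, 276.9 and 1172 RPKM in spermatogonia and at 1264, 1158 and 1438 RPKM in primary spermatocytes, and was higher in all 3 mice. Smc1b had differences of -0.64, 0.77 and -0.14. The meiotic kleisins Rec8 and Rad21l had differences of -2.15, -1.83 and -4.19 and of -5.33, -5.92 and -0.31.

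Genes of early meiotic prophase did not follow one direction across mice. Of 9 synaptonemal complex and chromosome axis genes tested, none was 2-fold higher in all 3 mice and 1, Syce2, was 2-fold lower (11.1%, beside 15.8% of all genes), and the list medians were -2.02, 1.01 and 0.95. Hormad1, which marks unsynapsed axes, stood at 673.1, 107.2 and 59.4 RPKM in spermatogonia and at 155.7, 505.3 and 243.5 RPKM in primary spermatocytes. It was lower by 2.11 in mouse 178 and higher by 2.24 and 2.03 in mice 648 and 544. Sycp3, the single-strand DNA binding factor Meiob, the recombination factor Msh4 and the helicase Hfm1 gave the same pattern at 2-fold, which 38 of the 21453 genes tested (0.177%) had. Sycp2, a lateral element protein, stood at 308.7, 60.6 and 84.4 RPKM in spermatogonia and at 181.9, 668.9 and 162.7 RPKM in primary spermatocytes. The spermatogonia library of mouse 178 thus held the highest level of Sycp1, Sycp2, Hormad1, Meiob and Hfm1 among the 3 spermatogonia libraries. Syce1, a central element protein, was higher by 2.63 and 3.11 in the wildtype mice and stood at 235.7 against 207.0 RPKM in mouse 544.

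Of 21 recombination genes, 1 was at least 2-fold higher and 4 at least 2-fold lower in all 3 mice (2 and 2 after quantile normalization, 4 and 2 after median centring), with medians of -1.19, -0.03 and 0.997. These shares, 4.76% and 19%, were near those of all genes, 3.38% and 15.8%, so the genes below are described singly. Spo11, the enzyme that makes the meiotic double-strand breaks, stood at 19.4, 2.37 and 19.95 RPKM in spermatogonia and at 61.0, 31.1 and 55.2 RPKM in primary spermatocytes, with no overlap. Psmc3ip, also known as HOP2, which stimulates strand exchange, was higher by 1.64, 2.995 and 0.93. The genes at least 2-fold lower in every mouse were Tex11, Tex15, Mei4 and Rec114. Mei1 was also lower in every mouse, with differences of -1.19, -1.83 and -0.97. Mei4 and Rec114 act with Spo11 in break formation, and their differences were -3.10, -3.73 and -1.02 and -2.84, -4.73 and -1.16. Tex15, needed for loading of the strand exchange proteins, stood at 47.6, 171.0 and 37.3 RPKM and then at 1.59, 10.4 and 6.55 RPKM, and X-linked Tex11 at 12.6, 44.7 and 6.17 RPKM and then at 0.146, 0.885 and 1.56 RPKM. Dmc1, the meiotic strand exchange protein, stood at 16.5, 3.31 and 4.66 RPKM in spermatogonia and at 0.225, 0.183 and 4.77 RPKM in primary spermatocytes, so it was lower in the wildtype mice and level in mouse 544. Mlh3, which marks crossovers, had differences of 1.42, 0.23 and 2.23.

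With the deposited values, pachytene factors had the largest share of higher genes among the 23 lists. Of 18 transcription and piRNA factors tested, 5 were at least 2-fold higher in all 3 mice, or 27.8% beside 3.38% of all genes, and none was lower, with medians of 1.62, 2.44 and 0.63. The fit of mice 178 and 648 called 14 higher and 2 lower (17.5% and 28.5% of all genes), and the unpaired fit of 9 libraries called 10 higher and none lower (8.08% and 20.6% of all genes). After quantile normalization only 2 of the 18, Piwil1 and Henmt1, were at least 2-fold higher in every mouse. This was near the share of all genes under that scaling (1727 of 21453). After median centring 8 genes of the list were, beside 3216 of all 21453 genes. Piwil1, the Argonaute protein that binds pachytene piRNAs, stood at 22.2, 5.41 and 48.9 RPKM in spermatogonia and at 138.1, 120.9 and 437.0 RPKM in primary spermatocytes, with a mean difference of 3.41 (SE 0.63, n = 3, limma adjusted p = 0.0561). Mybl1, also known as A-MYB, the transcription factor that drives pachytene piRNA genes, stood at 67.0, 18.2 and 51.4 RPKM and then at 144.0, 208.0 and 132.7 RPKM. Tdrd1 and Tdrd5, Tudor proteins of the germ granules, had differences of 1.38, 1.19 and 2.78 and of 1.46, 2.29 and 3.09. Henmt1, which methylates the ends of piRNAs, stood at 4.58, 9.45 and 9.38 RPKM and then at 30.5, 21.5 and 25.6 RPKM.

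Promoter windows of 300 bases were available for 14 of these 18 genes in a RefSeq table (GRCm38.p6), from 250 bases before to 50 bases after the transcription start. They were searched on both strands for 4 MYB-type hexamers, namely TAACTG, its variant TAACGG, the hexamer CAACTG and its variant CAACGG, since Mybl1 was itself higher in every mouse. One or more of them stood in 5 of the 14 windows (35.7%) and in 28.3% of all 32851 windows in the table. Among the genes 2-fold higher in all 3 mice with a window, Piwil1 and Tdrd5 held the motif, and Tdrd1 and Henmt1 did not hold these letters. The windows with a match are shown 5′ to 3′ on the strand of the gene, with the matches or their reverse complements in capitals. The Piwil1 window spans chr5:128735996-128736295 on the plus strand and the Tdrd5 window chr1:156303299-156303598 on the minus strand.
Piwil1: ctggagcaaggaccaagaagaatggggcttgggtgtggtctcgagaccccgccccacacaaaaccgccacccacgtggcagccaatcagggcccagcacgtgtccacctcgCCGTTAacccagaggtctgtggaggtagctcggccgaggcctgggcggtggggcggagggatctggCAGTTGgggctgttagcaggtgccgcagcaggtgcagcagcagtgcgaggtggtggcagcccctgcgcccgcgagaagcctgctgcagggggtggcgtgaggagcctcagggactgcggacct
Tdrd5: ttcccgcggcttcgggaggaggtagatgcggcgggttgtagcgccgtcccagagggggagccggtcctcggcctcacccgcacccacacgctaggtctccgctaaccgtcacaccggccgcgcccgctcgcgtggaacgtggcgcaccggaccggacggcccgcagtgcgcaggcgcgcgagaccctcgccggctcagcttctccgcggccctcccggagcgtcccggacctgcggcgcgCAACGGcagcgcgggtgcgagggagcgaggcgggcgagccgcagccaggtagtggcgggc

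A second set of pachytene genes was higher in the wildtype mice and not in mouse 544. Ybx2, which stores messenger RNA in germ cells, stood at 782.6, 121.0 and 6136 RPKM in spermatogonia and at 6442, 2325 and 5703 RPKM in primary spermatocytes. Tdrd6 stood at 17.7, 9.80 and 223.1 RPKM and then at 400.1, 216.6 and 146.1 RPKM, and Rfx2, a regulator of genes for later sperm formation, at 47.7, 22.4 and 218.4 RPKM and then at 197.2, 343.5 and 210.1 RPKM. In primary spermatocytes mouse 544 lay between the wildtype mice for Ybx2 and Rfx2 and below them for Tdrd6, while its spermatogonia library, the one with the spermatid transcripts, lay above both wildtype spermatogonia libraries for all 3 genes. Mael, Ddx25 and Adad1 followed the same pattern, with differences of 1.81 to 2.95 in the wildtype mice and of -0.29, -0.33 and -0.86 in mouse 544. After median centring the differences of these 6 genes in mouse 544 were positive and below 1. Piwil2 and Mov10l1, which act earlier in the piRNA pathway, went the other way, lower by 0.55 to 2.10 in the wildtype mice and higher by 2.70 and 1.98 in mouse 544, though after median centring mouse 648 was no longer lower for either and mouse 178 not for Piwil2. Btbd18, a factor of piRNA gene transcription, had differences of -5.97, -2.67 and 0.53.

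**Figure D3:**
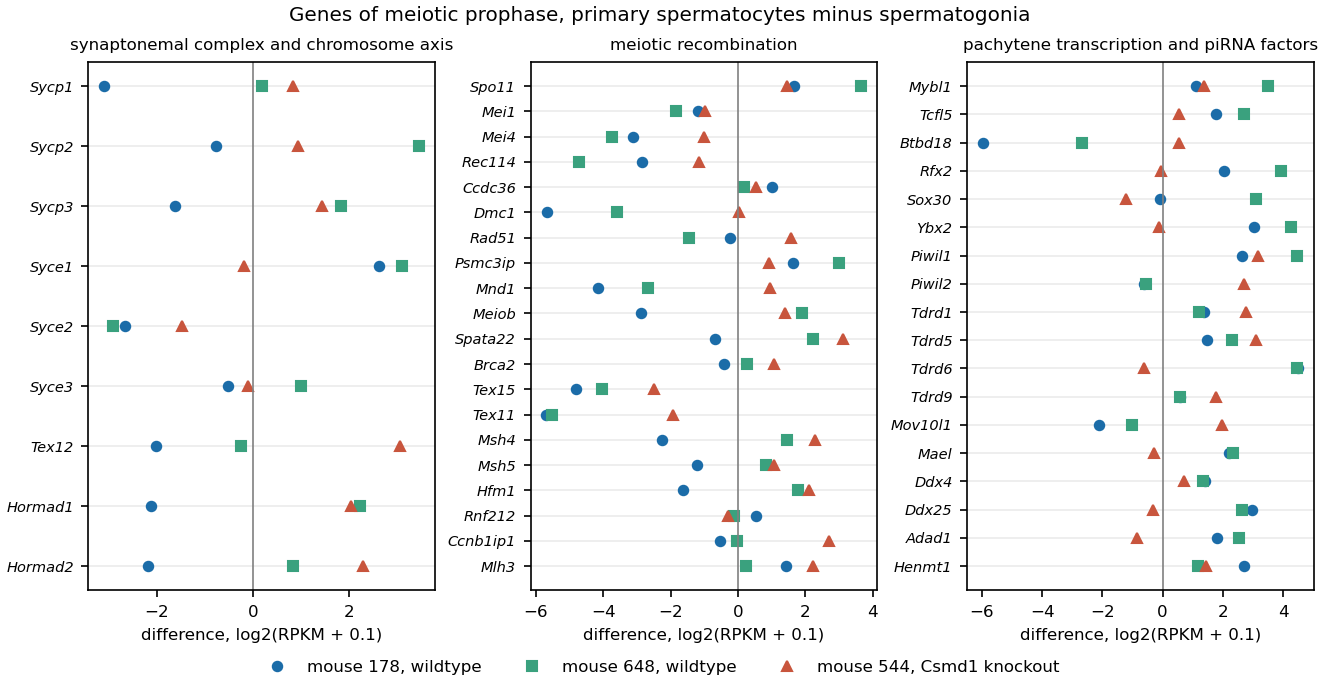
Difference in log2(RPKM + 0.1) for tested genes of 3 lists, 1 point per mouse and a grey line at 0. Points of mouse 178 lie left of those of the other mice for Sycp1, Sycp3, Hormad1, Meiob, Msh4 and Hfm1, and all 3 points of Mybl1, Piwil1, Tdrd1, Tdrd5 and Henmt1 lie at or above 1.

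Genes of the meiotic divisions did not share 1 direction. Of 15 tested, 6 were higher in all 3 mice, 1 of them at least 2-fold (6.67%, beside 3.38% of all genes), and 1 was at least 2-fold lower in all 3 (6.67%, beside 15.8%; 2 and 0 after quantile normalization, 4 and 0 after median centring), with medians of 0.87, 1.89 and -0.02. Nek2, a centrosome and meiotic kinase, stood at 122.5, 40.3 and 149.9 RPKM in spermatogonia and at 398.3, 242.1 and 378.7 RPKM in primary spermatocytes, with no overlap. Hspa2, the chaperone that activates CDK1 for the exit from prophase, stood at 139.9, 35.8 and 344.7 RPKM and then at 532.0, 681.9 and 653.9 RPKM. Cks2, a cofactor of CDK1, was higher by 0.49, 2.04 and 2.86. Aurka and Aurkc, kinases of the spindle, were higher by 1.88 to 3.77 in the wildtype mice and differed by 0.01 and -0.02 in mouse 544. Ccna1, the meiotic A-type cyclin, was higher by 2.89 and 3.53 in the wildtype mice and lower by 2.40 in mouse 544, where it stood at 42.4 RPKM in spermatogonia and 7.92 RPKM in primary spermatocytes. Cdc25c, a phosphatase that activates CDK1, was lower in all 3 mice by 2.0, 1.61 and 2.59.

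Of 10 histone genes, Hist1h1t and H2afz were at least 2-fold higher in all 3 mice (20%, beside 3.38% of all genes), also under both other scalings, and none was lower. H2afz, the replacement histone H2A.Z, stood at 619.1, 161.0 and 802.2 RPKM in spermatogonia and at 2476, 589.4 and 3245 RPKM in primary spermatocytes, so its difference varied little between mice (2.0, 1.87 and 2.02). The testis variants Hist1h2ba and Hist1h2aa did not separate the stages, with differences of -0.999, 1.33 and 3.59 and of -1.39, -1.73 and 3.10. Hils1 and H1fnt, linker histones of spermatids, stood at 113.9 and 95.3 RPKM in the spermatogonia of mouse 544 and at 4.31 RPKM or less in the other 5 libraries.

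X-linked genes lay below autosomal genes in all 3 mice. The median difference of 882 X-linked genes was -2.98, -2.67 and -2.37, and that of 20493 autosomal genes was -0.31, -0.38 and -0.23. The medians of the 19 autosomes lay between -0.46 and -0.11 in mouse 178, -0.61 and 0.00 in mouse 648, and -0.54 and 0.00 in mouse 544, so the X chromosome lay below every autosome in each mouse. The X median minus the autosomal median was -2.68, -2.30 and -2.14, a mean of -2.37 ± 0.28 (SD, n = 3). An exact sign-flip permutation test gave p = 0.25, the smallest 2-sided p that 3 mice allow. Of the X-linked genes, 485 (55.0%, beside 15.8% of all genes) were at least 2-fold lower in all 3 mice and 1 (0.113%, beside 3.38%) was 2-fold higher, and 658 had a negative difference in every mouse. The count of 485 became 297 after quantile normalization and 285 after median centring, and the X median remained negative in every mouse under both.

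**Figure D4:**
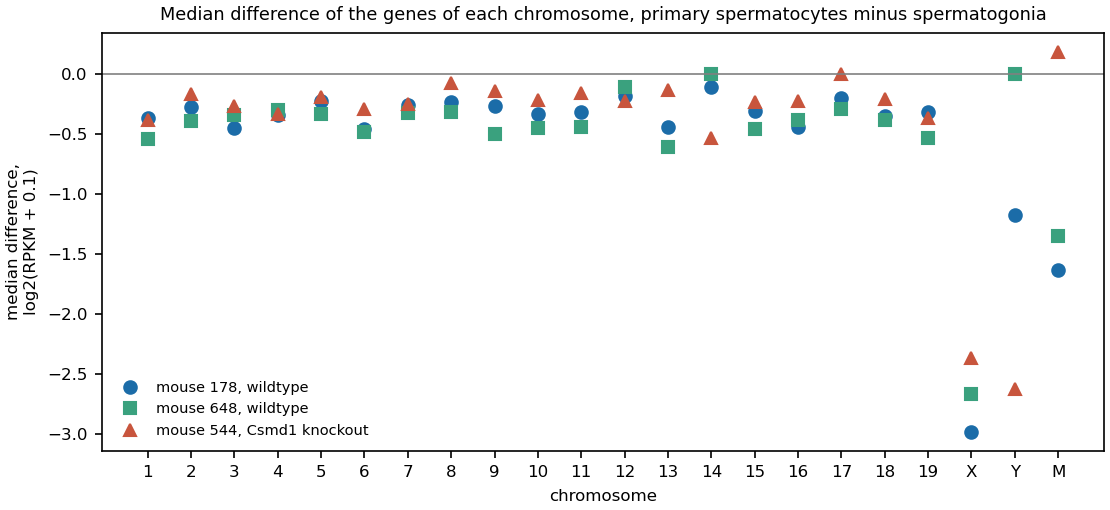
Median difference in log2(RPKM + 0.1) of the tested genes of each chromosome, 1 point per mouse, with a grey line at 0. The 19 autosomes lie between -0.61 and 0.00 and the X chromosome at -2.98, -2.67 and -2.37, while Y (41 genes) and the mitochondrial genome M (37 genes) are spread between mice.

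The difference was larger among abundant X-linked genes. With genes grouped by their mean over the 6 libraries, the X medians were -4.81, -4.29 and -2.80 for 149 genes over 10 RPKM and -1.71, -1.44 and -1.67 for 379 genes under 1 RPKM, where the pseudocount limits the difference. Autosomal genes over 10 RPKM had medians of 0.26, 0.35 and 0.12. As a share of summed nuclear protein-coding RPKM, X-linked genes held 1.61%, 2.34% and 0.819% in spermatogonia and 0.0413%, 0.110% and 0.107% in primary spermatocytes. The share was thus 39.0-fold, 21.3-fold and 7.67-fold higher in spermatogonia, and primary spermatocytes of the 3 mice all lay below every spermatogonia library. In spermatogonia 240 X-linked genes had a mean of at least 10 RPKM, and in primary spermatocytes 15 did.

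Those 15 genes were named after their values were seen. Huwe1, a large ubiquitin ligase, stood at 715.9, 838.9 and 356.5 RPKM in spermatogonia and still at 14.7, 33.2 and 62.5 RPKM in primary spermatocytes. Most others were likewise abundant before, such as Maged1, Cdk16, Zrsr2 and Thoc2, with differences of -2.26 to -6.45. Irak1 and Ndufa1 had differences of -0.50 and 0.98 in mouse 544 and were lower in the wildtype mice. The exceptions were Mospd1, which was higher by 2.09 and 2.04 in the wildtype mice and lower by 2.18 in mouse 544, the spermatid gene Akap4 and the pseudogene Gm6472. Gm6472 had differences of -0.50, -0.10 and -0.15, but as a pseudogene it may take reads of a parent gene. The 1 X-linked gene 2-fold higher in all 3 mice was the pseudogene Fthl17-ps3, which did not exceed 0.776 RPKM in any library.

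Spermatogonia-expressed X-linked genes were lower gene by gene. Of 10 such genes, 9 (90%, beside 15.8% of all genes) were at least 2-fold lower in all 3 mice (4 after quantile normalization or median centring) and none was higher. The share was 55.0% for all X-linked genes and 87.2% for those with a mean over 10 RPKM. The 90% is thus near that of abundant X-linked genes and does not set this list apart. Taf7l, a germ cell subunit of the general transcription machinery, stood at 263.2, 238.1 and 114.2 RPKM in spermatogonia and at 3.74, 9.75 and 19.4 RPKM in primary spermatocytes. Usp26, a deubiquitinase, stood at 31.5, 56.3 and 10.5 RPKM and then at 0.33, 1.15 and 2.08 RPKM, and Tktl1, a transketolase-like enzyme, at 104.0, 52.4 and 25.2 RPKM and then at 0.144, 1.09 and 10.9 RPKM. The tenth, Tex13a, had differences of -0.92, 1.86 and -4.86 and stood at 23.1 RPKM in the spermatogonia of mouse 544 and under 1 RPKM elsewhere. Scml2, an X-linked polycomb protein that acts in germline silencing, stood at 151.9, 198.5 and 55.9 RPKM and then at 3.32, 7.12 and 14.2 RPKM.

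Y-linked genes were few. Of 41 tested, 10 were at least 2-fold lower in all 3 mice (24.4%, beside 15.8% of all genes) and none was higher, with medians of -1.18, 0.00 and -2.62. Eif2s3y, a translation initiation factor needed for spermatogonial proliferation, stood at 41.1, 21.4 and 53.0 RPKM in spermatogonia and at 2.03, 1.68 and 6.08 RPKM in primary spermatocytes. Zfy1 and Zfy2, zinc finger genes that act in meiosis, had differences of -5.94, -1.46 and -1.47 and of -6.43, -1.64 and -2.05. These Y-linked genes were picked after their values were seen. Several multicopy Y genes, such as Gm21858 and Gm20901, were highest in the spermatogonia of mouse 544, at 14.98 and 33.5 RPKM, and their copies can share reads.

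Autosomal retrogenes can replace X-linked housekeeping genes during this silencing, and 10 such pairs were compared. All 10 X-linked progenitors were lower in all 3 mice, 9 of them at least 2-fold (6 after quantile normalization), with medians of -4.06, -4.40 and -2.54. The 9 are 90% of the list, beside 15.8% of all genes and 55.0% of X-linked genes. Among X-linked genes with a mean of 1 to 10 RPKM the share was 67.8%, and over 10 RPKM it was 87.2%. Of the 10 retrogenes, 2 were at least 2-fold higher in all 3 mice (20%, beside 3.38% of all genes; 3 after quantile normalization, 4 after median centring), with medians of 2.31, 3.01 and 0.05. Pdha1, the X-linked subunit of pyruvate dehydrogenase, stood at 3.36, 6.08 and 1.68 RPKM in spermatogonia and at 0.037, 0.106 and 0.022 RPKM in primary spermatocytes. Its retrogene Pdha2 stood at 5.81, 0.88 and 30.3 RPKM and then at 38.6, 9.78 and 70.3 RPKM. Timm8a1, a mitochondrial import protein, stood at 1.09, 1.21 and 0.548 RPKM and then at 0, 0 and 0.086 RPKM, while Timm8a2 stood at 4.96, 2.92 and 3.97 RPKM and then at 22.4, 19.3 and 14.5 RPKM. In these pairs the X-linked gene and the retrogene went in opposite directions in every mouse.

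In 8 of the 10 pairs the retrogene's difference lay above that of the X-linked gene in all 3 mice. The exceptions were Pgk1 with Pgk2 and Fam50a with Fam50b, both in mouse 544. Pgk2, the phosphoglycerate kinase of spermatocytes and sperm, stood at 3.99, 2.08 and 88.4 RPKM in spermatogonia and at 22.4, 24.6 and 6.24 RPKM in primary spermatocytes. Rpl10, a ribosomal protein gene, had differences of -4.46, -4.73 and -2.42, and its retrogene Rpl10l of 1.19, 2.19 and 0.89. The splicing factor gene Rbmx had -4.83, -3.78 and -0.996, and Rbmxl2 had -0.86, 0.53 and 0.47. Sequence similarity within a pair can move reads between its genes, so these values are uncertain to that extent.

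**Figure D5:**
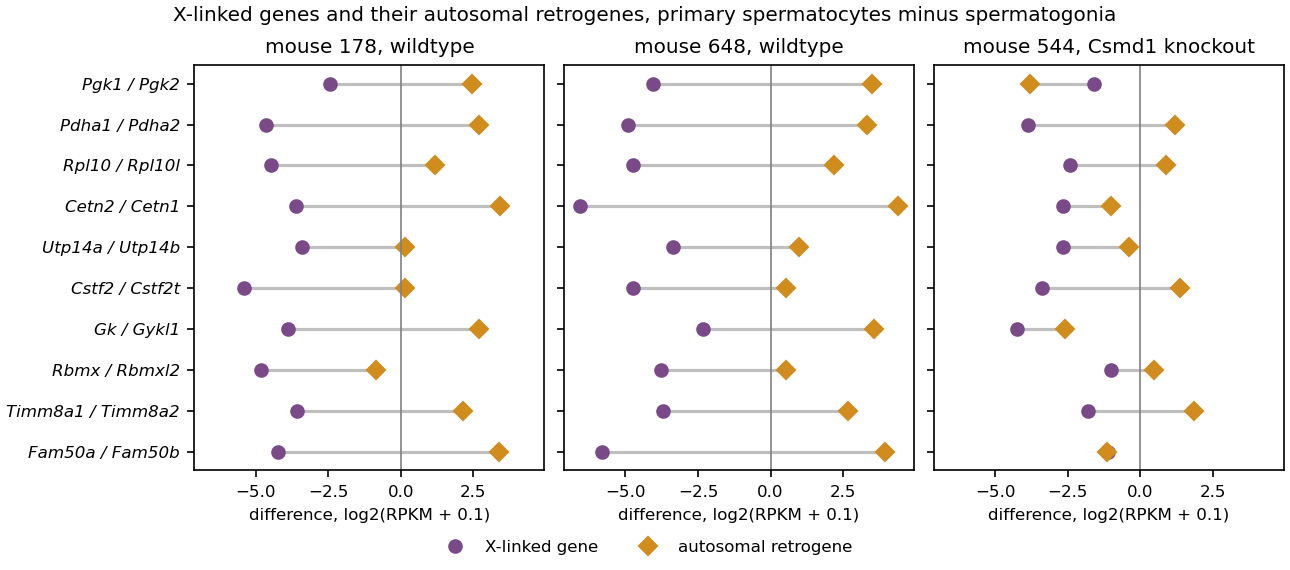
Difference in log2(RPKM + 0.1) of 10 X-linked genes (circles) and their autosomal retrogenes (diamonds) in each mouse, on 1 common axis, with a grey line joining a pair. The circles lie below 0 in all 3 panels, and the diamonds lie right of the circles in every pair of mice 178 and 648 and in 8 pairs of mouse 544.

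Genes of a list of sex body and silencing factors, not all of which build the sex body, did not move together. Of 10 tested, 1 was at least 2-fold higher in all 3 mice (10%, beside 3.38% of all genes) and 2 at least 2-fold lower (20%, beside 15.8%). The medians were -0.94, -0.54 and 1.89. After quantile normalization none was 2-fold higher, beside 1727 of all 21453 genes, and after median centring 2 were, beside 3216 of 21453. Atr, the kinase that spreads the silencing signal, stood at 22.8, 15 and 15.5 RPKM in spermatogonia and at 47.9, 65.8 and 71.0 RPKM in primary spermatocytes, with no overlap. Mdc1, which carries the phosphorylation of histone H2AX into chromosome loops, was higher by 0.24, 1.92 and 2.28. H2afx itself, the ATR activator Topbp1 and the ligase Rnf8 were higher in mouse 544 only, by 2.67, 2.01 and 1.77, and lower by 0.24 to 1.22 in the wildtype mice, where the sign turned in at least 1 mouse for each after median centring. The 2 genes that were lower were Scml2 and the repressor Bcl6. Brca1, which loads ATR on unsynapsed axes, had differences of -3.77, -3.88 and -0.92.

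Transcripts of the mitochondrial genome went in another direction in mouse 544 than in the wildtype mice, and this difference was not tested. Over 37 genes the medians were -1.63, -1.35 and 0.18, and the fit of mice 178 and 648 called 29 of them lower and none higher, beside 28.5% and 17.5% of all genes. The mitochondrial share of summed RPKM was 15.3%, 25.7% and 1.45% in spermatogonia and 3.73%, 13.6% and 1.89% in primary spermatocytes. Both libraries of mouse 544 therefore lay below all 4 wildtype libraries. mt-Cytb, cytochrome b, chosen after its values were seen, had differences of -2.63, -1.22 and 0.66.

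Complement genes, the protein cascade to which Csmd1 is related by its domains, were mostly lower. Of 22 tested, 13 (59.1%, beside 15.8% of all genes) were at least 2-fold lower in all 3 mice (8 after quantile normalization) and none higher, with medians of -2.11, -2.66 and -2.16, and the fit of mice 178 and 648 called 13 lower and 3 higher (28.5% and 17.5% of all genes). C3, the central component, stood at 7.86, 16.96 and 10.2 RPKM in spermatogonia and at 1.60, 1.46 and 1.47 RPKM in primary spermatocytes, with no overlap. C1qb, a recognition subunit made by macrophages, had differences of -5.53, -4.58 and -3.28, and Serping1, a soluble inhibitor, of -3.64, -4.75 and -2.20. Macrophage, peritubular and Sertoli marker sums moved in the same direction by the values given above. Membrane regulators did not share 1 direction. Cd55b, a testis form of decay-accelerating factor, stood at 15.7, 10.5 and 123.5 RPKM in spermatogonia and at 172.3, 175.3 and 31.2 RPKM in primary spermatocytes, and its near copy Cd55 had differences of 0.93, 0.74 and -3.43. Cd46, a cofactor for C3b cleavage on the acrosome, stood at 1.43, 0.248 and 17.5 RPKM and then at 0.056, 0.049 and 0.288 RPKM. Of the relatives of Csmd1, Csmd2 and Csmd3 were higher by 1.61 to 3.37 in the wildtype mice and lower by 1.89 and 2.12 in mouse 544, at levels of at most 3.15 RPKM.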

How the data were processed

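Paired-end reads of polyadenylated RNA were aligned by the authors with TopHat2 to an Ensembl gene set. The deposited table holds RPKM for 94480 transcripts. Their PEER adjustment and quantile normalization are not in the 6 columns used here, in which 93.5 to 94.5% of low values fall within 0.06 of a whole read (12% by chance). That step gave the mapped reads per library. No count model was fitted. GENCODE M21 (GRCm38) matched 90339 transcripts (95.6%), a later release than the authors used. The 2828 transcripts lacking a value in at least 1 of the 6 libraries were left out, which gave 37002 genes, and genes with a mean of at least 0.1 RPKM were tested with limma 3.58.1 (R 4.3.3) on log2(RPKM + 0.1), with the mouse as a block, a trend and Benjamini-Hochberg adjustment. The fit was run on simulated data in which all mice had the same spread and the same change. No simulated mouse stood apart as mouse 544 did, so that run does not bear on the number of genes called here. Tables and figures were made with Python 3.11.15, pandas 2.3.3, numpy 2.4.6 and matplotlib 3.10.9.

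Libraries are paired because both come from 1 animal. The deviations from the stage means of the libraries of mice 178, 648 and 544 correlated with r = 0.03, 0.34 and -0.12. Transcripts without a value numbered 865, 2828 and 1411 in both libraries of mice 178, 648 and 544. Libraries of mice 286, 614 and 550 had these same counts, so the counts do not mark the animal and do not bear on the pairing. Among the mice compared here, whatever sets these counts cannot be told apart from the mouse, also for mouse 544. Genes named are all genes of 23 lists, the 4 markers and, per direction, the 10 genes whose smallest difference among the 3 mice was largest and whose higher stage averaged 1 RPKM or more, taken from all genes tested because none passed the adjusted p. Genes named outside this rule are marked. The comparison and the lists were chosen with earlier results of these data known. The SE is limma's, over mice, and the number of mice limits the precision. The alternatives were other pseudocounts, filters, scalings and transcript choices, no block, each mouse left out, and 9 unpaired libraries. Median centring was added after seeing the data. Values of some list genes are not reported here.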

Additional observations from a re-analysis of the deposited data

Results flagged for a closer look

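With the deposited values, in 12 of the named genes both wildtype mice differed at least 2-fold in one direction and the knockout mouse 544 at least 2-fold in the other. The difference between genotypes was not tested, as the knockout has 1 pair, and genotype cannot be told apart from the spermatid transcripts in the spermatogonia library of mouse 544. Given as the difference between stages in mouse 544 minus the mean of mice 178 and 648, in log2 units, the values were -4.62 for Dmrtb1, -5.61 for Ccna1, -6.79 for Pgk2, -4.90 for Cetn1, -5.72 for Gykl1, -4.81 for Fam50b, -4.47 for Csmd2, -3.83 for Csmd3 and -5.73 for Cd55b, all higher in the primary spermatocytes of the wildtype mice. The other 3 were lower there, with 2.42 for Stag1, 3.53 for Mov10l1 and 4.66 for Hist1h2aa. Over all genes, 1010 (4.71%) were higher in both wildtype mice and lower in mouse 544 and 547 (2.55%) the reverse. The pattern depended on the scaling. After median centring, Dmrtb1, Cetn1, Fam50b and Csmd2 differed by less than 2-fold in mouse 544 (-0.69, -0.09, -0.23 and -0.98). Stag1, Mov10l1 and Hist1h2aa then differed by less than 2-fold in at least 1 wildtype mouse.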

How the results depend on the processing

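The paired limma count of 0 genes in each direction was the same with pseudocounts of 0.01 and 1 RPKM, no filter, a filter at a mean of 1 RPKM, quantile normalization, the most abundant transcript per gene, missing transcripts counted as 0, and median centring, with 4105 to 6892 genes at an unadjusted p under 0.05 in these fits. Transcripts counted as 0 changed no value, as they were at 0 wherever they had one. Without the mouse as a block the counts were 55 higher and 970 lower, and the unpaired fit of 9 libraries gave 1721 and 4395. Leaving out 1 mouse gave 0 to 3667 higher and 0 to 5958 lower genes. The high ends were without mouse 544, and 3 genes were lower without mouse 648. Genes 2-fold higher in every mouse numbered 726, and 461 with a pseudocount of 1 RPKM, 1727 after quantile normalization and 3216 after median centring, with 1096 to 3652 when 1 mouse was left out. Genes 2-fold lower numbered 3392, and 1568, 1659 and 1479 under the same 3 settings, with 4135 to 6601 when 1 mouse was left out. Without mouse 178, whose spermatogonia library held the most Sycp1, the counts were 1096 and 4135. The X minus autosome value kept its sign under every alternative run, from -1.002 (pseudocount 1 RPKM) to -3.41 (mean of at least 1 RPKM), with -2.19 to -2.57 when 1 mouse was left out. Of the 278 named genes none was called in the opposite direction under an alternative. Without mouse 544, 191 were called, beside 17.5% of all genes called higher and 28.5% lower. In 9 libraries 161 were called (8.08% and 20.6% of all genes), and without the block 62 (55 and 970 of 21453 genes). The named genes include the leading genes, picked by their differences in these same data, so these counts are no test of them. Of the 23 list medians, the sign turned for histone variants after quantile normalization (0.24 to -0.12), for recombination genes and sex body factors without mouse 544, for synaptonemal complex genes without mouse 648, and for recombination genes and spermatid markers in 9 libraries. The causes of these differences were not tested. With 3 mice, an exact test cannot go below p = 0.25.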

Other observations

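The wildtype mice also differed from each other. In 243 genes (1.13%), mouse 178 and mouse 544 were at least 2-fold lower and mouse 648 at least 2-fold higher, and 7 of these are spermatid markers (Prm1, Tnp2, Smcp, Gapdhs, Akap4, Acrv1 and Spaca1). In the spermatogonia of mouse 648 all 7 were lower than in the other spermatogonia libraries. Smcp, a mitochondrial capsule protein of sperm and the most abundant of the 7 in mouse 648, stood there at 9.46 RPKM in spermatogonia. It stood at 35.2 RPKM in primary spermatocytes, against 121.7 and 26.7 RPKM in mouse 178. Others were near the floor in mouse 648, with Prm1 at 0.094 and then 0.342 RPKM and Tnp2 at 0.321 and then 4.1 RPKM. Among noncoding classes, 5.76% of 330 snoRNA genes were 2-fold lower and 1.21% 2-fold higher in all 3 mice. Both shares lay below those of all genes, 15.8% and 3.38%.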
